A study of Mus musculus with 32 samples.

Results

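Whole kidneys of mice with a deletion of Pkd1 in the tubules (PKD, 12 kidneys) were compared with wildtype kidneys (8 kidneys) across all genes. These 20 untreated kidneys were chosen by their labels out of 32 in the series. The remaining 12 came from PKD mice given Salsalate. They entered only the choice of genes tested, the scaling factors and the shared estimate of the spread. PKD mice were C57BL/6 males of the iKspCre-Pkd1del line, in which a Cre that tamoxifen activates is driven by the kidney-specific cadherin promoter. By this design the floxed Pkd1 exons are lost from tubule epithelium after tamoxifen. The paper writes the Pkd1 genotype of the line with a deleted and a floxed form, so cells outside the tubules may also lack a copy. The PKD mice received 150 mg/kg tamoxifen on days 18 and 19 after birth and were labelled 95 days old. Wildtype mice were of the same line and sex, were not given tamoxifen and were labelled 109 days old, although the growth protocol ends the experiment for every mouse at day 95. The deletion and the tamoxifen, and the age if the labels are right, cannot be told apart. RNA of each kidney was sequenced as 1 strand-specific poly(A) library, and between 11193136 and 47213530 reads per kidney were counted on genes.

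Pkd1 encodes polycystin-1, a large membrane protein of the primary cilium, the sensory antenna of a tubule cell. Loss of polycystin-1 from tubule cells leads to fluid-filled cysts, which grow by proliferation and fluid secretion while inflammation and scarring build up around them. Each part of the nephron has its own transport genes, from the proximal tubule, which takes back most filtered solute, to the collecting duct, which sets water and acid balance. In RNA of a whole kidney, fewer cells of a type and less RNA per cell cannot be told apart.

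The wildtype libraries fell into 2 sets before any comparison with PKD. The names of 5 of them end in R (wildtype R), a letter the labels do not explain, and those of the other 3 do not (wildtype other); no PKD library carries the letter. In the R libraries 13.2 to 15.7% of reads fell outside genes, against 7.60 to 9.77% in the other set and 7.65 to 16.4% in PKD kidneys. At an adjusted p under 0.05 (edgeR quasi-likelihood test, Benjamini-Hochberg adjustment over all 13961 genes tested), 6715 genes (48.1%) differed between the wildtype sets. PKD kidneys differed from all wildtype kidneys in 6852 genes (49.1%), from the R libraries in 8342 (59.8%) and from the other set in 5654 (40.5%). The last count was 3627 without wildtype replicate 7. A gene is therefore called kept where it passed the test against all wildtype kidneys and had the same direction against each wildtype set taken separately.

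By this rule 5812 genes were kept, of which 3054 (21.9% of genes tested) were higher and 2758 (19.8%) lower in PKD kidneys. Counts of list members given below are to be read against these shares. The other 1040 called genes moved in opposite directions against the 2 sets and are not counted as changes. Of the kept genes, 2720 also passed the test against each set on its own, with 1594 (11.4%) higher and 1126 (8.07%) lower. Changes of more than 2-fold were mostly rises, with 571 kept genes higher and 160 lower, and beyond 4-fold there were 132 and 6. All 12 PKD kidneys lay above all 8 wildtype kidneys in 728 genes (5.21%) and below them in 289 (2.07%). These rises and falls are not counted on equal terms. A gene was tested where its log2 CPM passed 1 in 25% or more of all 32 kidneys. Genes near 0 in wildtype kidneys could pass through PKD kidneys alone. Genes near 0 in every PKD kidney, treated or not, had to pass in all 8 wildtype kidneys. PKD replicate 10 carried RNA of liver genes; without it 3006 genes (21.5%) were kept higher and 2753 (19.7%) lower, and 5594 of the 5812 kept genes were kept in the same direction. The split between rises and falls depends on the scaling. With trimmed-mean factors, 52.5% of kept genes were higher and the median log2 fold change over all genes was -0.01, whereas with library totals alone 75.0% were higher (4520 against 1509) and the median was 0.10.

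**Figure D1:**
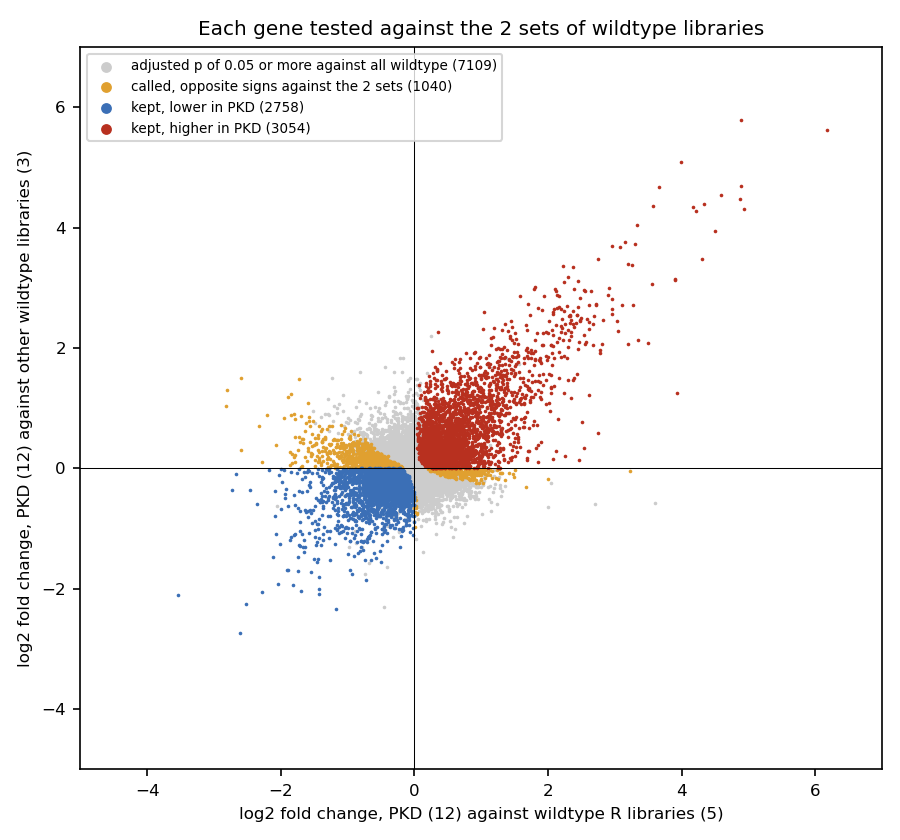
Log2 fold change of PKD against the 5 wildtype R libraries (x axis) and against the 3 other wildtype libraries (y axis), 1 point per gene tested. Red and blue points are the 3054 genes kept higher and 2758 kept lower, which share a direction on both axes; orange points are the 1040 called genes that do not, and 1 gene lies outside the axes.

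Pkd1 itself is no check of the deletion here, since the counts are summed over all exons of the gene (chromosome 17, 24768808 to 24815482, plus strand, GRCm39) and most of them lie outside the floxed part. It was at 53.1 to 86.4 CPM (median 66.4) in wildtype kidneys and at 70.7 to 113 CPM (median 92.2) in PKD kidneys. The groups overlapped, and the log2 fold change was 0.42 ± 0.11 (SE, adjusted p = 0.00134), with 0.53 against the R libraries and 0.25 against the other set (adjusted p = 0.178).

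Genes of injured tubule cells were among the largest rises. Of 33 tested genes on the tubular injury list, 29 were kept higher and none lower, with a median log2 fold change of 1.22 against the R libraries and 1.05 against the other set, and 23 lay above every wildtype kidney. Havcr1, which encodes the injury marker KIM-1 of the proximal tubule, was at 0.446 to 1.08 CPM (median 0.603) in the R libraries, 0.727 to 1.78 CPM (median 0.980) in the other wildtype set and 27.9 to 89.1 CPM (median 56.7) in PKD kidneys. No PKD kidney overlapped a wildtype kidney, and the level was 59.6 times higher (log2 5.90 ± 0.42, adjusted p = 7.45e-13). Lcn2, which encodes the iron-carrier binding protein NGAL released by stressed distal tubules, rose from 1.22 to 2.45 CPM (median 1.58) to 25.8 to 57.3 CPM (median 45.1), a log2 fold change of 4.68 ± 0.27 (adjusted p = 9.49e-15). Krt20, a keratin of injured tubules and of urothelium, rose by 4.57 ± 0.48, from at most 0.889 CPM in wildtype kidneys to at least 4.84 CPM in PKD kidneys. Spp1, which encodes osteopontin, was at 223 to 488 CPM (median 317) in wildtype and 1134 to 2491 CPM (median 2007) in PKD kidneys and had a log2 fold change of 2.50 ± 0.20.

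The other genes among the 10 largest rises came from several groups. Timp1, an inhibitor of matrix metalloproteinases, had a log2 fold change of 4.41 ± 0.33, with 0.272 to 0.862 CPM (median 0.474) in wildtype and 6.76 to 15.3 CPM (median 10.4) in PKD kidneys. Il1rn, the antagonist of the interleukin-1 receptor, rose by 4.37 ± 0.44, although its wildtype values rest on 18 reads over 8 libraries. Ptgds, a prostaglandin D synthase, was at 3.34 to 6.69 CPM (median 4.38) in wildtype and 54.1 to 119.5 CPM (median 85.6) in PKD kidneys, a narrow spread on both sides (log2 4.25 ± 0.15, adjusted p = 2.14e-21). Serpina10, an inhibitor of clotting factors, rose by 4.79 ± 0.29 and Mybpc2, a myosin-binding protein, by 4.24 ± 0.34; all 12 PKD kidneys exceeded all wildtype kidneys for both. Arhgap36 was read 6 times in the 5 R libraries together, was listed at 0 in the other 3, and had between 33 and 214 reads in each PKD kidney (2.24 to 4.95 CPM (median 3.24)); its log2 fold change of 6.01 against all wildtype kidneys rests on those 6 reads, and none is given against the set at 0. Fgb, a fibrinogen chain made by hepatocytes, completes the 10; its fold change of 5.26 ± 1.21 was carried by PKD replicate 10 and fell to 1.88 without it (adjusted p = 3.43e-04).

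Proliferation genes rose together. Of 48 tested genes of mitosis 44 were kept higher and none lower, against 21.9% of all genes tested, and 38 of the 48 lay above every wildtype kidney. Their median log2 fold change was 1.69 against the R libraries and 2.02 against the other set. Mki67, the proliferation marker Ki-67, was at 5.40 to 11.0 CPM (median 6.77) in the R libraries, 3.81 to 6.90 CPM (median 6.49) in the other set and 31.4 to 55.4 CPM (median 44.2) in PKD kidneys (log2 2.77 ± 0.16, adjusted p = 1.69e-14). Cenpf, a kinetochore protein, rose by 2.71 ± 0.17, Pbk, a mitotic kinase, by 2.63 ± 0.23, and Tpx2, a spindle assembly factor, by 2.48 ± 0.19. Of 42 tested genes of DNA replication 37 were kept higher and none lower, with a smaller median of 0.72 against the R libraries and 0.74 against the other set. Clspn, a mediator of the replication checkpoint, rose by 2.28 ± 0.23, Uhrf1, which maintains DNA methylation behind the fork, by 2.28 ± 0.16, and Rrm2, a subunit of ribonucleotide reductase, by 1.97 ± 0.17. Cdc6, which loads the replicative helicase, was at 0.669 to 1.20 CPM (median 0.769) in wildtype and 1.97 to 3.05 CPM (median 2.51) in PKD kidneys. Myc, which promotes growth, rose by 1.36 ± 0.19, and Ccnd1, a cyclin of the G1 phase, by 0.85 ± 0.08; neither group of kidneys overlapped the other for these genes. The cell cycle inhibitor Cdkn1a rose as well, by 1.84 ± 0.15, with 5.80 to 8.36 CPM (median 7.23) in wildtype and 17.8 to 34.6 CPM (median 23.9) in PKD kidneys, and 12 of 20 tested p53 targets were kept higher and 1 lower.

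Promoters of tested mitosis and DNA replication genes, kept or not, were searched for the letters of known cell cycle elements. The search covered both strands, from 250 bases before to 50 after the start (RefSeq promoters, build GRCm38.p6, matched by symbol for 10460 tested genes). Both lists are made of known cell cycle genes, so their shares say how the lists were made and not what changed in PKD kidneys. CCAAT occurred in 31 of 41 mitosis promoters (75.6%), against 38.0% of all tested promoters, and TTTGAA, the cell cycle homology region, in 29 of 41 (70.7%) against 11.9%. Both occurred in 63.4% of mitosis promoters and 4.85% of all. In 36 promoters of DNA replication genes, TTTCCCGC or TTTGGCGC, which E2F factors are known to bind, occurred in 30.6%, against 2.98% of all promoters, and TTTGAA in 13.9%. Over all kept genes the shares were close to those of all promoters: CCAAT was found in 38.9% of 2272 promoters of genes kept higher and 37.8% of 2114 of genes kept lower, TTTGAA in 12.8% and 10.8%, and the E2F letters in 4.14% and 2.60%. The first 150 bases upstream of 3 of these genes are shown, with the matched letters (either strand) in capitals. Mki67 (chr7:135716380-135716529, minus strand) had 1 CCAAT and 2 TTTGAA matches. Cenpf (chr1:189688087-189688236, minus strand) had 2 CCAAT matches, and Cdc6 (chr11:98908001-98908150, plus strand) had 1 E2F match. In the same window Clspn, Uhrf1 and Rrm2, which are not shown, had 0 E2F matches and 2, 1 and 1 CCAAT matches.
Mki67: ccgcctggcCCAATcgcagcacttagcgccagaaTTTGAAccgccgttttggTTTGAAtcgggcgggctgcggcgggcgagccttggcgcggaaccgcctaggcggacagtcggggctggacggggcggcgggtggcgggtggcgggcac
Cenpf: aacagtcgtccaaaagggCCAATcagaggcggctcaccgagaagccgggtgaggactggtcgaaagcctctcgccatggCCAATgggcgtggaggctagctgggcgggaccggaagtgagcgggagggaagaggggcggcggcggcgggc
Cdc6: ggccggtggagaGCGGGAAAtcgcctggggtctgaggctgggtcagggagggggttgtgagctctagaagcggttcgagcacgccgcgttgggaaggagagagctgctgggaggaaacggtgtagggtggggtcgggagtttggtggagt

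The list of YAP and TAZ, co-activators that respond to cell stretch and stiffness, holds their targets. It also holds Yap1, Wwtr1 (TAZ) and the partner genes Tead1, Tead2 and Tead4. Of its 22 tested genes 12 were kept higher and 2 lower. Ccn1, a matrix-bound growth signal, was at 9.96 to 26.0 CPM (median 15.5) in wildtype and 35.2 to 81.3 CPM (median 65.4) in PKD kidneys (log2 1.93 ± 0.17). Ankrd1 rose by 1.78 ± 0.22, Myof by 1.40 ± 0.11 and F3, which encodes tissue factor, by 1.20 ± 0.14; for these 4 genes the groups of kidneys did not overlap. The members kept lower were Yap1 itself (-0.29 ± 0.08, and -0.02 against the other set, adjusted p = 0.849) and Igfbp3 (-0.34 ± 0.10, and -0.10 against the other set, adjusted p = 0.495); with library totals alone neither passed, at -0.19 and -0.23. GGAATG, which TEAD factors, the partners of YAP, are known to bind, occurred on either strand in 11 of the 16 promoters of this list (68.8%), against 12.3% of all tested promoters, 12.7% of those kept higher and 13.2% of those kept lower. The list is made largely of genes known as targets, so this share says how the list was made. The 150 bases upstream of Ccn1 (chr3:145649986-145650135, minus strand) and Ankrd1 (chr19:36119845-36119994, minus strand), both GRCm38.p6, hold 1 match each, in capitals.
Ccn1: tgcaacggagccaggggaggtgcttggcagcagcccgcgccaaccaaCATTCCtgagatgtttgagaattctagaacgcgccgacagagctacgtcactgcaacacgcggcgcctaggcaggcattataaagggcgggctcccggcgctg
Ankrd1: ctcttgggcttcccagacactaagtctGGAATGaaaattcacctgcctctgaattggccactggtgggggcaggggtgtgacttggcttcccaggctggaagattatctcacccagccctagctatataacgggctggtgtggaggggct

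Macrophage genes were higher in PKD kidneys almost without exception. Of 27 tested macrophage genes 26 were kept higher, 24 of them also passing against each wildtype set alone, and 21 lay above every wildtype kidney. The median log2 fold change was 1.18 against the R libraries and 1.66 against the other set. The summed level of the list was 392 to 672 CPM in wildtype kidneys and 934 to 1491 CPM in PKD kidneys. Of the defining markers, Adgre1 (the surface protein F4/80) rose by 1.39 ± 0.19, Cd68, a lysosomal protein, by 1.30 ± 0.15, and Csf1r, the receptor that keeps macrophages alive, by only 0.44 ± 0.08. The largest changes were those of Gpnmb (2.72 ± 0.30) and Trem2 (2.64 ± 0.32), which mark lipid-handling and scar-associated macrophages, Itgam (2.24 ± 0.22) and the lysozyme gene Lyz2 (1.97 ± 0.18). Trem2 was at 0.603 to 1.14 CPM (median 0.762) in the R libraries, 0.254 to 0.454 CPM (median 0.363) in the other set and 2.86 to 5.88 CPM (median 3.46) in PKD kidneys, with no overlap. Ccl2, the chemokine that draws monocytes, rose from 0.297 to 0.608 CPM (median 0.476) to 2.49 to 4.86 CPM (median 3.78) (log2 2.95 ± 0.26).

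Genes of other immune cells were fewer above the filter on low values. Of 20 T and NK cell genes only 6 passed it, and the T cell receptor genes Cd3d, Cd3e and Cd3g did not. Cd8a (0.79 ± 0.20) and Cd4 (0.74 ± 0.23) were among the 3 kept higher, and for both the groups overlapped; the summed level of the list was 12.1 to 28.9 CPM in wildtype and 19.1 to 41.3 CPM in PKD kidneys. Of 12 neutrophil genes 1 was tested, the receptor gene Csf3r, which rose by 1.27 ± 0.18 with no overlap. Of 14 genes of B and plasma cells 7 were tested, of which none was kept higher and 2 were kept lower; the summed level was 25.3 to 183 CPM in wildtype and 31.1 to 119.8 CPM in PKD kidneys, so the groups overlapped. Pax5, a B cell transcription factor, was 1 of the 2 (-0.98 ± 0.27) and did not pass against the other wildtype set (adjusted p = 0.748).

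Inflammatory signals rose as a group. Of 20 tested chemokines and cytokines 13 were kept higher and 1 lower. Lif, a cytokine of the interleukin-6 family, was at 0.0947 to 0.409 CPM (median 0.273) in wildtype and 2.85 to 8.43 CPM (median 4.74) in PKD kidneys (log2 4.21 ± 0.32), Cxcl1, a neutrophil attractant, rose by 2.23 ± 0.29, and Cxcl10, a T cell attractant, by 1.67 ± 0.18. The 1 lower was Cxcl12 (-0.51 ± 0.11), a chemokine made by stroma and also on the fibroblast list. Among 20 genes of the NF-kappaB pathway 14 (70.0%) were kept higher and 1 (5.0%) lower, against 21.9% and 19.8% of all genes tested. The inhibitor-like co-factors Nfkbiz (1.74 ± 0.14) and Bcl3 (1.68 ± 0.16) and the adhesion molecules Vcam1 (1.71 ± 0.20) and Icam1 (0.88 ± 0.09) rose. Of 20 complement genes 14 were kept higher and 1 lower, with 11 passing against each set alone. The central component C3 was at 16.7 to 31.3 CPM (median 23.1) in wildtype and 56.5 to 381 CPM (median 79.8) in PKD kidneys; C4b rose by 2.32 ± 0.27, the protease Cfi by 2.78 ± 0.24 and the anaphylatoxin receptor C5ar1 by 2.06 ± 0.24. The inhibitor Cd59a was the 1 kept lower, at -0.83 ± 0.15 overall but -0.10 against the other wildtype set (adjusted p = 0.64).

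Genes of antigen presentation were kept higher in 13 of 17 cases and lower in none. H2-Ab1, a class II chain, was at 73.4 to 187 CPM (median 113) in wildtype and 194 to 382 CPM (median 290.5) in PKD kidneys, and its chaperone Cd74 rose by 1.20 ± 0.12. Interferon-stimulated genes were less even: 14 of 33 were kept higher and none lower, only 6 of them passing against each set, and 22 of the 33 differed between the wildtype sets. Their median log2 fold change was 0.09 against the R libraries and 0.66 against the other set. Oas2, a sensor of viral RNA, was the member that rose most (1.49 ± 0.20), and Rigi, another such sensor, rose by 0.75 ± 0.08.

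Immediate early genes, which cells switch on within minutes of a stimulus, were kept higher in 18 of 22 cases and lower in 2. Egr2 rose by 3.49 ± 0.40, Fos by 3.29 ± 0.36, Egr1 by 2.41 ± 0.24 and the stress factor Atf3 by 2.06 ± 0.22. Fos spread widely among PKD kidneys, at 2.15 to 17.9 CPM (median 7.14), and still lay above all wildtype kidneys (0.508 to 1.23 CPM (median 0.799)). Ier3 (-0.53 ± 0.12) and Klf2 (-0.46 ± 0.11), a factor of endothelium, were the 2 kept lower. Of 22 genes of the unfolded protein and integrated stress response 12 were kept higher and none lower. Only 4 of them passed against each set, and 14 of the 22 differed between the wildtype sets. The largest rises were those of Phgdh (1.39 ± 0.17) and Asns (1.09 ± 0.16), enzymes that make serine and asparagine.

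Matrix genes rose broadly. Of 35 genes of the extracellular matrix and its turnover 29 were kept higher and none lower, 26 of them also against each set alone. Col8a1 was at 2.36 to 5.59 CPM (median 3.28) in wildtype and 14.9 to 28.5 CPM (median 22.6) in PKD kidneys (log2 2.73 ± 0.21), and Col12a1 rose by 2.33 ± 0.18. Fibroblast genes were kept higher in 16 of 23 cases and lower in 2. The fibrillar collagen gene Col1a1 was at 36.9 to 53.4 CPM (median 40.7) in the R libraries, 52.2 to 57.3 CPM (median 53.9) in the other set and 149 to 319 CPM (median 231) in PKD kidneys, so that PKD kidneys lay above both sets (log2 2.32 ± 0.17, adjusted p = 1.24e-12). Col3a1 rose by 2.31 ± 0.17, Col1a2 by 1.37 ± 0.13 and the collagen cross-linker Lox by 2.54 ± 0.22. Pdgfra, the receptor that marks resident fibroblasts, changed less, by 0.39 ± 0.11, and Dpep1, a dipeptidase also made by the proximal tubule, was lower (log2 -1.21 ± 0.09, 154 to 207 CPM (median 176) in wildtype and 44.7 to 97.7 CPM (median 77.1) in PKD kidneys).

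Contractile and vessel genes were mixed. Of 16 tested genes of mesangium, pericytes and smooth muscle 6 were kept higher and 2 lower, with a median log2 fold change of -0.04 against the R libraries and 0.35 against the other set. Acta2 (smooth muscle actin) rose from 26.5 to 46.9 CPM (median 38.4) to 77.7 to 112 CPM (median 95.4), Tagln by 1.33 ± 0.14, Notch3, a receptor of mural cells, by 1.23 ± 0.13 and the pericyte receptor Pdgfrb by 0.73 ± 0.08. Myh11, the myosin of mature smooth muscle, was at -0.11 ± 0.11 (adjusted p = 0.427). The 2 kept lower were Mylk, the kinase that activates smooth muscle myosin (-0.44 ± 0.09), and the renin gene Ren1 (-0.44 ± 0.17); for both the groups overlapped, and neither passed against the other set (log2 -0.06 and -0.37, adjusted p = 0.641 and 0.126). Ren1 also lost its call with library totals alone, by limma-voom, with every gene that had a count, with the percent of reads outside genes as a covariate, and without wildtype replicate 1 (-0.20, adjusted p = 0.251), wildtype replicate 6 (-0.41, 0.0541), PKD replicate 2 (-0.41, 0.0521) or PKD replicate 11 (-0.40, 0.0547). Of 25 endothelial genes 8 (32.0%) were kept higher, against 21.9% of all genes tested, and 2 lower. Cdh5, the junction cadherin of endothelium, rose by 0.70 ± 0.09 and Pecam1 by 0.29 ± 0.08, whereas Kdr, the receptor of vascular endothelial growth factor, fell from 57.9 to 99.2 CPM (median 66.9) to 35.7 to 56.1 CPM (median 49.99) (log2 -0.54 ± 0.09). The glomerular endothelial gene Ehd3 was kept lower at -0.83 ± 0.14, but was at -0.15 against the other set (adjusted p = 0.276). Of 18 podocyte genes, which mark the filter cells of the glomerulus, 8 (44.4%) were kept lower and 2 (11.1%) higher. Over all genes tested 19.8% were kept lower and 21.9% higher. Only 3 of the 8 podocyte genes kept lower passed against each set. Nphs1 (nephrin) fell by 0.53 ± 0.11 on the log2 scale.

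**Figure D2:**
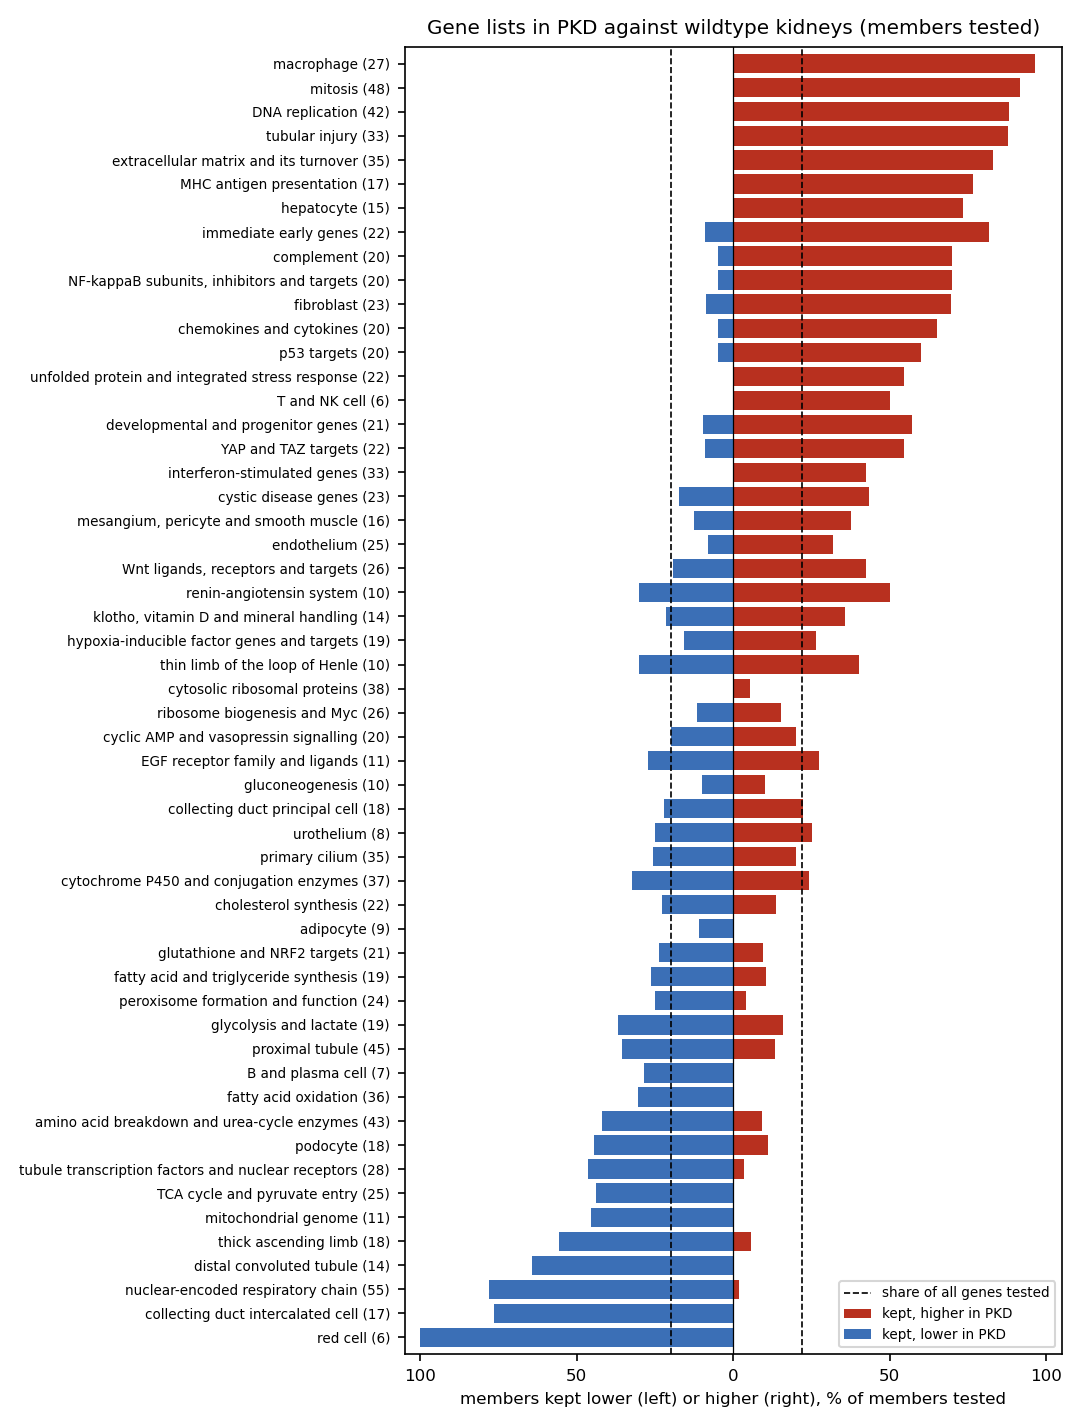
Percent of tested members of each gene list that were kept higher (right, red) or lower (left, blue) in PKD kidneys; the number of members tested stands in brackets, lists with fewer than 5 are left out, and dashed lines mark the shares over all 13961 genes (21.9% and 19.8%). Macrophage (26 of 27) and mitosis genes (44 of 48) stand at the top and red cell (6 of 6), intercalated cell (13 of 17) and respiratory chain genes (43 of 55) at the bottom.

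Distal nephron genes were lower. Of 14 tested genes of the distal convoluted tubule, the segment that fine-tunes salt, calcium and magnesium, 9 were kept lower and none higher, and 7 lay below every wildtype kidney. Slc12a3, the thiazide-sensitive sodium chloride cotransporter that defines the segment, was at 952 to 1219 CPM (median 1114) in the R libraries, 971 to 1003 CPM (median 989) in the other set and 413 to 623 CPM (median 504) in PKD kidneys (log2 -1.03 ± 0.07, adjusted p = 3.51e-13). Pvalb, the calcium-binding parvalbumin, was among the 10 largest falls of all genes (-1.76 ± 0.20; 12.5 to 30.3 CPM (median 18.7) in wildtype and 2.93 to 9.68 CPM (median 5.40) in PKD kidneys). The calcium handling genes Calb1 (-1.56 ± 0.12), S100g (-1.32 ± 0.16) and Slc8a1 (-1.25 ± 0.13) were also lower, while the magnesium channel Trpm6 was not kept, with -0.76 against the R libraries and 0.01 against the other set.

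Intercalated cells, which secrete acid or base in the collecting duct, fell most evenly among the tubule segment lists: 13 of 17 tested genes were kept lower and none higher, and all 13 passed against each wildtype set alone. The proton pump subunit Atp6v1b1 was at 165 to 216 CPM (median 174) in the R libraries, 123 to 136 CPM (median 135) in the other set and 59.1 to 84.0 CPM (median 74.1) in PKD kidneys, with no overlap (log2 -1.10 ± 0.08). Another pump subunit, Atp6v1g3, fell by 1.14 ± 0.14 on the log2 scale, the anion exchanger Slc4a1 by 1.46 ± 0.14 and the insulin receptor-related receptor Insrr, an alkali sensor, by 1.48 ± 0.14. Foxi1, the transcription factor that specifies these cells, fell from 23.4 to 32.9 CPM (median 27.5) to 13.2 to 24.9 CPM (median 17.1). Slc4a1 is also a red cell gene and was counted in both lists. Principal cells, their neighbours in the duct, did not fall as a group: 4 of 18 genes were kept higher and 4 lower, near the background in both directions. Of their water channels, Aqp4 rose from 6.54 to 21.7 CPM (median 11.2) to 24.7 to 47.4 CPM (median 35.7) (log2 1.57 ± 0.17), Aqp2 was at 0.24 ± 0.16 (adjusted p = 0.225), and Aqp3 had 0.70 against the R libraries and -0.50 against the other set.

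The thick ascending limb, which dilutes the urine, had 10 of 18 genes kept lower and 1 higher. Its members differed in size of change. Egf, the growth factor precursor made there and in the distal tubule, was at 626 to 864 CPM (median 707) in the R libraries, 1126 to 1339 CPM (median 1144) in the other set and 269 to 453 CPM (median 384) in PKD kidneys (log2 -1.28 ± 0.14, adjusted p = 4.12e-09). The phosphatase inhibitors Ppp1r1b (-1.50 ± 0.10) and Ppp1r1a (-1.27 ± 0.12) and the potassium channel Kcnj1 (-0.47 ± 0.07) were below every wildtype kidney. The defining transporter Slc12a1 (-0.11 ± 0.11, adjusted p = 0.41) and Umod, which encodes uromodulin (0.15 ± 0.12, adjusted p = 0.314), did not pass, and both had opposite signs against the 2 sets. The tight junction gene Cldn19 was the 1 kept higher (0.63 ± 0.08). In the thin limb list of 10 genes 4 were kept higher and 3 lower. The tight junction gene Cldn4 (log2 1.21 ± 0.18) rose with no overlap, and the defining urea transporter Slc14a2 was at 0.11 ± 0.14 (adjusted p = 0.519).

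Proximal tubule genes gave no shared direction. Of 45 tested genes 16 (35.6%) were kept lower and 6 (13.3%) higher, against 19.8% and 21.9% of all genes tested. The median log2 fold change was 0.26 against the R libraries and -0.40 against the other set. Between the wildtype sets 34 of the 45 differed. The endocytic receptor Lrp2 (megalin) was at 468 to 748 CPM (median 579) in the R libraries, 1111 to 1418 CPM (median 1117) in the other set and 781 to 1599 CPM (median 1242) in PKD kidneys, so that PKD kidneys resembled the other set (log2 0.03, adjusted p = 0.887) and lay above the R libraries (1.05). Slc34a1, the phosphate transporter, lay between the sets, at 0.21 against the R libraries and -0.46 against the other set. Some members fell against both: Miox, an inositol-degrading enzyme, was at 1798 to 2600.0 CPM (median 2186) in wildtype and 1128 to 1557 CPM (median 1297) in PKD kidneys (log2 -0.73 ± 0.08), and Slc7a13, an amino acid transporter of the late proximal tubule, fell by 0.80 ± 0.12 on the log2 scale. Slc13a1, the sulphate transporter, rose by 0.81 ± 0.16. With library totals alone 10 members of the list were kept lower.

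Tubule transcription factors and nuclear receptors were kept lower in 13 of 28 cases and higher in 1. Tfap2b, a distal nephron factor, fell by 1.09 ± 0.14 on the log2 scale (0.45 against the other set), Emx1, a marker of the distal convoluted tubule, by 0.71 ± 0.08, and Esrrb, an orphan receptor of the thick limb, by 0.57 ± 0.09. Genes of kidney development went the other way, with 12 of 21 kept higher and 2 lower: Sox9, a factor of repairing tubule cells, was at 0.545 to 1.27 CPM (median 0.800) in wildtype and 2.52 to 7.91 CPM (median 4.15) in PKD kidneys (log2 2.46 ± 0.27), Sox11 rose by 1.61 ± 0.20 and Cdh6, a cadherin of early tubules, by 1.41 ± 0.13. Lhx1 (-0.71 ± 0.12) and Wt1, a podocyte factor (-0.43 ± 0.10), were the 2 kept lower.

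**Figure D3:**
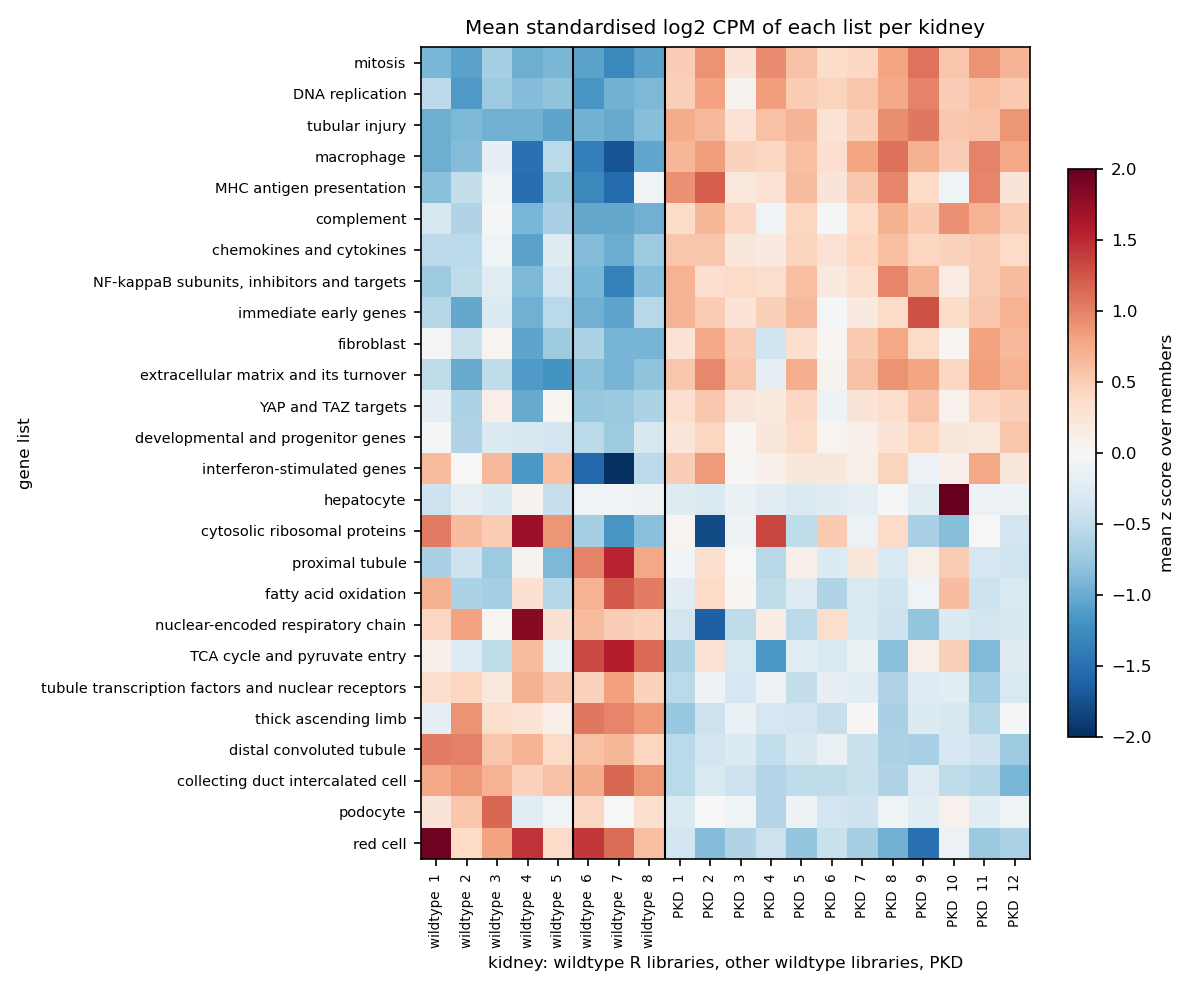
Mean z score of log2 CPM over the tested members of 26 lists (rows) in each of 20 kidneys (columns, vertical lines between the 5 wildtype R libraries, the 3 other wildtype libraries and the 12 PKD kidneys). The rows from mitosis to extracellular matrix are mostly higher in PKD kidneys than in both wildtype sets, and the rows from thick ascending limb to red cell mostly lower. Single kidneys overlapped in the thick ascending limb row and, by mean log2 CPM, in the podocyte and fibroblast rows. The hepatocyte row stands out in PKD replicate 10 alone.

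The size of the change in metabolic genes, and for some lists its sign, depended on the wildtype set. In the nuclear-encoded respiratory chain, the machinery of mitochondrial respiration, 43 of 55 genes were kept lower and 1 higher, but only 12 were lower against each set alone, 24 differed between the wildtype sets, and with library totals alone 24 were kept lower. Ndufb9, a subunit of complex I, was at 132 to 256 CPM (median 173) in the R libraries, 41.3 to 44.3 CPM (median 41.7) in the other set and 14.0 to 64.1 CPM (median 30.4) in PKD kidneys; the fall was 2.47 on the log2 scale against the R libraries and 0.37 against the other set (adjusted p = 0.268). Atp5po, a subunit of the ATP synthase, fell against both, by 1.79 and 0.61. Of 25 genes of the TCA cycle and pyruvate entry, regulators of that entry included, 11 were kept lower and none higher, 8 of them against each set. Their median was -0.04 against the R libraries and -0.36 against the other set, and 13 of the 25 differed between the wildtype sets. Pdk1, which restrains pyruvate entry, fell from 46.2 to 68.8 CPM (median 54.5) to 27.6 to 42.7 CPM (median 32.6) (log2 -0.78 ± 0.07), and Idh2 by 0.39 ± 0.06. Of 36 genes of fatty acid oxidation 11 (30.6%) were kept lower, against 19.8% of all genes tested, and none higher. The medians were 0.03 against the R libraries and -0.34 against the other set, so the list had no shared direction. Acads, a short-chain dehydrogenase, was lower against both (log2 -0.62 ± 0.07). Amino acid breakdown had 18 of 43 genes kept lower, 9 of them against each set, and 4 higher. Its median log2 fold change was -0.06 against the R libraries and -0.37 against the other set, and 24 of the 43 differed between the wildtype sets. Prodh2, which degrades hydroxyproline, fell from 107 to 163 CPM (median 126) to 38.1 to 75.4 CPM (median 51.7). Arg2, the mitochondrial arginase, rose by 1.25 ± 0.19. With library totals alone 6 genes of the TCA cycle and pyruvate entry, 6 of fatty acid oxidation and 11 of amino acid breakdown were kept lower.

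Glycolysis genes were not higher as a group. Of 19 genes 7 were kept lower and 3 higher; the pyruvate kinase gene Pkm was at 267 to 409 CPM (median 325) in wildtype and 191 to 248 CPM (median 214) in PKD kidneys (log2 -0.60 ± 0.06) and Pfkm fell by 0.51 ± 0.06. The lactate transporters Slc16a1 (1.03 ± 0.19) and Slc16a3 (1.02 ± 0.20) were higher. Cytosolic ribosomal proteins had medians of -0.42 against the R libraries and 0.25 against the other set, 31 of 38 genes differed between the wildtype sets, and 2 were kept. Gluconeogenesis, the synthesis of fatty acids, cholesterol synthesis, the peroxisome and the cytochrome P450 and conjugation enzymes likewise had medians of opposite sign against the 2 sets and are not described as changed. They had 1, 2, 3, 1 and 9 members kept higher and 1, 5, 5, 6 and 12 kept lower, of 10, 19, 22, 24 and 37 tested, in that order. Of single genes in them, Cyp2d12 fell by 1.73 ± 0.26 on the log2 scale.

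Of 11 tested genes of the mitochondrial genome 5 were kept lower and none higher, and none passed against each set alone. The renin-angiotensin system had 5 of 10 kept higher and 3 lower, of which 1 passed against each set. Without PKD replicate 10, 2 were kept higher and 3 lower. The median log2 fold change of this list was 0.36 against the R libraries and -0.05 against the other set. Urothelium had 2 of 8 genes kept in each direction and adipocytes 1 of 9 kept lower. Targets of NRF2, a regulator of antioxidant genes, had 2 of 21 (9.52%) kept higher and 5 (23.8%) lower. Hypoxia-inducible targets had 5 of 19 (26.3%) higher and 3 (15.8%) lower. Ribosome biogenesis with Myc had 4 of 26 (15.4%) higher and 3 (11.5%) lower. Over all genes tested 21.9% were kept higher and 19.8% lower.

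Lists of fluid secretion and of cyst-related signals held members kept in both directions. Cftr, the chloride channel through which cyst epithelium secretes, was at 1.12 to 2.03 CPM (median 1.29) in the R libraries, 2.43 to 3.18 CPM (median 2.79) in the other set and 3.74 to 7.68 CPM (median 5.90) in PKD kidneys (log2 1.55 ± 0.19, adjusted p = 4.42e-08). Ptger4, a prostaglandin E2 receptor that raises cyclic AMP, rose by 1.04 ± 0.10, and Avpr2, the vasopressin receptor, by 0.38 ± 0.09, whereas the cyclases Adcy5 (-0.46 ± 0.08) and Adcy9 (-0.49 ± 0.12) were lower; the whole list had 4 of 20 kept in each direction. Among ligands of the EGF receptor family, Nrg1 (1.79 ± 0.13) and Btc (1.46 ± 0.18) rose with no overlap and Egf fell, as given for the thick limb; 3 of the 11 tested genes of this list were kept in each direction. The Wnt ligand Wnt10a was at 0.254 to 0.690 CPM (median 0.477) in wildtype and 2.44 to 4.69 CPM (median 3.35) in PKD kidneys (log2 2.89 ± 0.20), and of 26 Wnt pathway genes 11 (42.3%) were kept higher and 5 lower, with medians of 0.51 against the R libraries and 0.02 against the other set. Among 23 genes mutated in cystic disease or its models 10 (43.5%) were kept higher, Pkd1 included, and 4 lower, with medians of 0.30 and -0.04; Pkhd1 (fibrocystin) rose by 0.85 ± 0.09, Glis2 by 0.83 ± 0.09 and Muc1 by 1.45 ± 0.11. Primary cilium genes had 7 of 35 kept higher and 9 lower, near the background in both directions, with small changes: Ift80 rose by 0.40 ± 0.05 and Ift52 fell by 0.29 ± 0.05. Of 14 genes of vitamin D and mineral handling 5 (35.7%) were kept higher and 3 (21.4%) lower, against 21.9% and 19.8% of all genes tested. The activating hydroxylase Cyp27b1 was at 1.08 to 9.18 CPM (median 2.13) in wildtype and 6.29 to 14.5 CPM (median 9.51) in PKD kidneys (log2 1.86 ± 0.31).

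Red cell genes fell in all 6 cases tested, and supplied 4 of the 10 largest falls. Hba-a1 was at 109 to 340.2 CPM (median 154) in wildtype and 19.8 to 71.5 CPM (median 48.6) in PKD kidneys (log2 -1.99 ± 0.23) and Hbb-bs at 111 to 394 CPM (median 161) and 22.2 to 83.8 CPM (median 57.5) (-1.81 ± 0.23). The summed level of the list was 270 to 848 CPM in wildtype and 56.9 to 172 CPM in PKD kidneys, so the groups did not overlap; how much blood each kidney held is not in the data. Hba-a2 (-3.13 ± 0.36) and Hbb-bt (-1.85 ± 0.28) are near-identical to these genes, and the split of reads between copies is uncertain. The other large falls were those of Cox8b, a muscle-type respiratory subunit (-2.40 ± 0.59, with overlap), Dusp9, a phosphatase of MAP kinases (11.5 to 16.9 CPM (median 14.4) in wildtype and 2.41 to 4.73 CPM (median 2.91) in PKD kidneys), Elavl3, an RNA-binding protein (-1.88 ± 0.19), Atp4a, the gastric-type proton pump also found in the collecting duct (-1.83 ± 0.12), and Perm1, a regulator of muscle mitochondria (-1.82 ± 0.15).

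Liver genes in PKD kidneys rested on 1 library. The summed level of the hepatocyte list was 169 to 284 CPM in wildtype kidneys and had a median of 216 CPM in PKD kidneys, with 7844 CPM in PKD replicate 10. Alb (albumin) was at 1.77 to 1929.9 CPM (median 2.7) in PKD kidneys and had a log2 fold change of 4.65 with that library and -1.28 without it. Of 15 tested members 11 were kept higher with the library and 4 higher and 6 lower without it. Fgg, a fibrinogen chain, remained higher without the library (log2 1.78, adjusted p = 1.11e-06; 2.77 ± 0.53 with it), and its lowest PKD kidney, at 8.75 CPM, lay above its highest wildtype kidney, at 7.66 CPM.

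**Figure D4:**
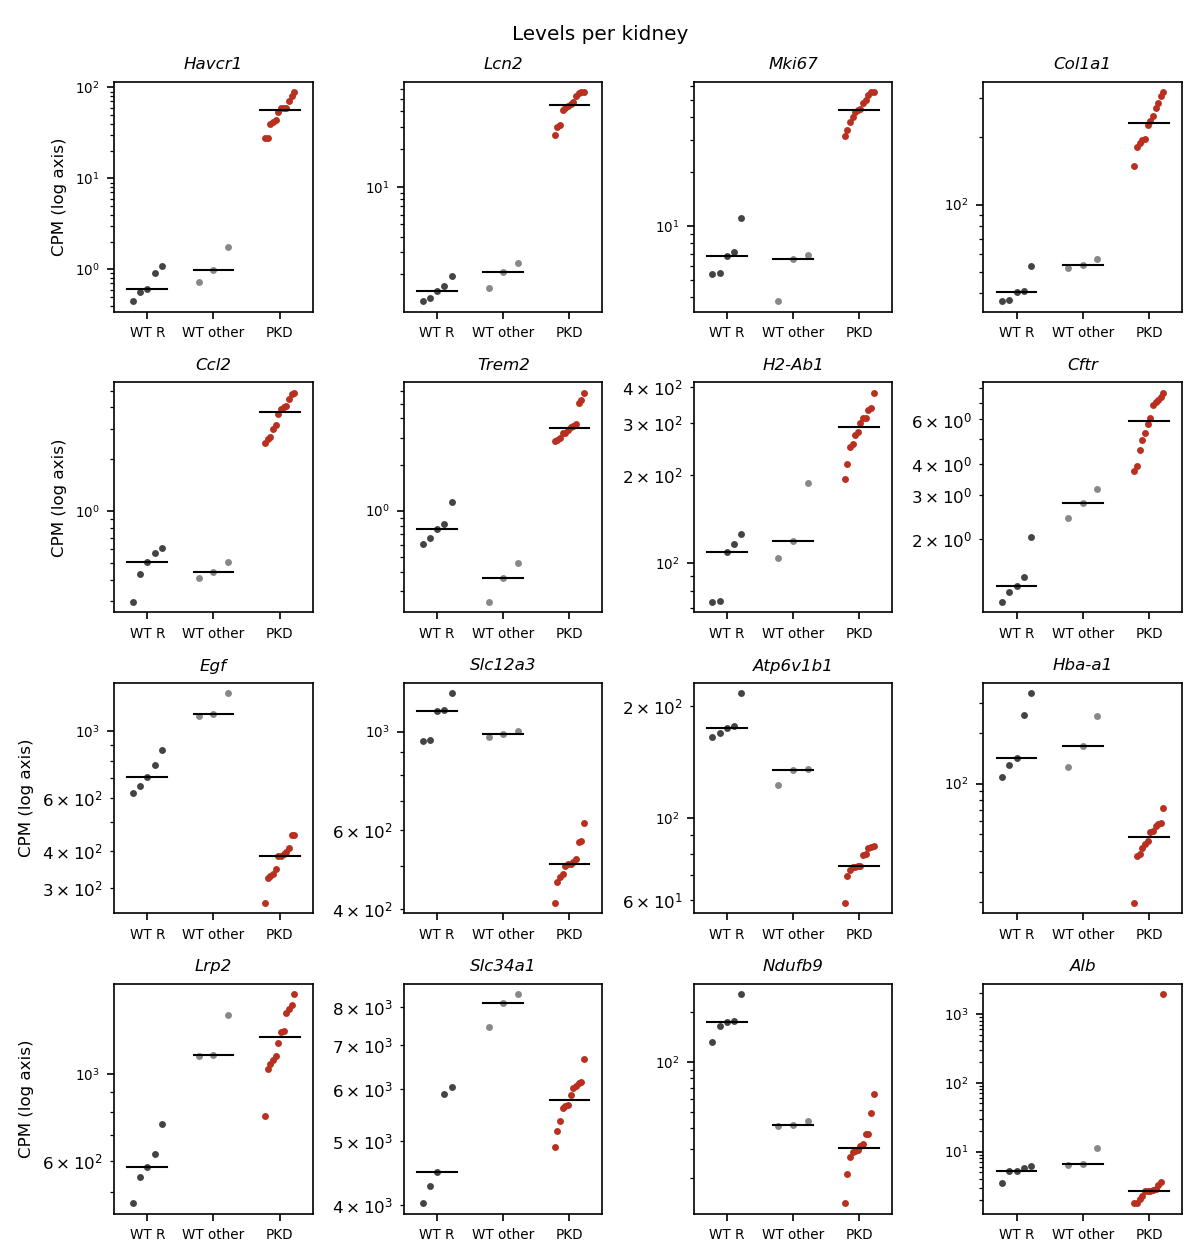
CPM per kidney (log axis) of 16 genes in the 5 wildtype R libraries (WT R), the 3 other wildtype libraries (WT other) and the 12 PKD kidneys; each point is 1 kidney and each bar the median. From Havcr1 to Cftr all PKD kidneys lie above both wildtype sets and from Egf to Hba-a1 below them, whereas Lrp2, Slc34a1 and Ndufb9 separate the wildtype sets from each other and Alb is high in 1 PKD kidney.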

How the data were processed

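Kidneys of 12 PKD and 8 wildtype mice were compared. Per the labels and methods, the authors trimmed reads with cutadapt 2.10, aligned them to GRCm39 with STAR 2.7.5a and counted reads per gene on the sense strand with HTSeq 0.12.4; the deposited values are these raw counts, unnormalised, for 53700 gene identifiers, of which 52610 were matched to symbols. The 5 summary lines of the counter stayed out of library sizes; reads outside genes made up 7.60 to 16.4% per kidney, and other lines were not used in tests.

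The 13961 genes whose log2 CPM passed 1 in 25% or more of all 32 kidneys were tested, with TMM scaling and edgeR 4.0.16 quasi-likelihood tests in R 4.3.3 over the 3 labelled groups, 2-sided, Benjamini-Hochberg adjusted, threshold 0.05. The test was repeated with each wildtype set alone, and without PKD replicate 10. Levels are CPM scaled by TMM factors and errors are SE of the log2 fold change. Nothing in the labels links kidneys across groups; replicate numbers name different mice. No pair of libraries within a group agreed within sampling noise. Depth was 11193136 to 47213530 counts per kidney, so 1 CPM stood for 11.2 to 47.2 reads; intervals from counting were not used, since the spread between mice is larger.

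The comparison, the wildtype sets and the 55 gene lists were chosen with earlier results of these data known, so lists are described by counts and medians, with no set test. Genes named are Pkd1, the 10 largest rises and 10 largest falls that passed in all tests (mean CPM over 1, no predicted gene names), members of each list with the largest changes (up to 4 in its main direction and 2 in the other) and the first 3 genes of each cell type list. Some genes that this rule names are not reported here. Alternatives were other scalings, DESeq2 1.42.0, limma-voom (limma 3.58.1), other filters, left-out kidneys, a replicate block and, chosen after seeing the data, the percent of reads outside genes as a covariate. The fits were tested on simulated data.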

Additional observations from a re-analysis of the deposited data

Results flagged for a closer look

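Among 159 genes and 4 list totals described, the highest or lowest kidney was set against the rest of its group by Dixon's ratio in the 8 wildtype kidneys and in the 5 R libraries (326 groups); groups of more than 10 kidneys, and so the PKD group, were not tested. It picked out 27 groups, in 21 genes, about 1 in 20 being the rate that chance gives. In every case the kidney that stood apart was the highest of its group. Wildtype replicate 1 was high in Calb1 (454 CPM), Cdc6 (1.14 CPM), Cyp27b1 (9.18 CPM), Fgb (3.03 CPM), Ren1 (144.8 CPM), Slc13a1 (277 CPM) and Spp1 (488 CPM). Wildtype replicate 2 was high in Adcy5 (9.39 CPM), Aqp3 (58.5 CPM), Notch3 (17.4 CPM), Nrg1 (11.3 CPM) and Pkhd1 (86.7 CPM). Wildtype replicate 3 was high in the proliferation genes Mki67 (11.0 CPM) and Cenpf (5.26 CPM), in Col1a1 (53.4 CPM) and in Lyz2 (44.4 CPM). The others were Dusp9 in wildtype replicate 4 (16.9 CPM), Atp6v1b1 (216 CPM) and C5ar1 (1.37 CPM) in wildtype replicate 5, Alb in wildtype replicate 6 (11.4 CPM) and H2-Ab1 in wildtype replicate 8 (187 CPM). Without the kidney that stood apart, Ren1 lost its call (log2 -0.20, adjusted p = 0.251) and none of the other genes here that had passed the test did.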

How the results depend on the processing

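Counts of called and kept genes moved by less than 1.5 times under other scalings, tests and filters, a fit of wildtype and PKD kidneys only and 4 groups in 1 fit: called genes numbered 6030 to 7906 (6852 in the report) and kept genes 5362 to 6963 (5812), and with the percent of reads outside genes as a covariate, chosen after seeing the data, 7392 and 6791. Leaving out 1 kidney at a time gave 6177 to 7254 called and 5414 to 6010 kept genes. For the tests against 1 wildtype set, only the kidneys of that set and PKD replicate 10 were left out in turn. These gave 7859 to 8280 called genes against the R libraries and 3627 to 5719 against the other set, the lowest without wildtype replicate 7. Leaving out each wildtype kidney gave 5190 to 6738 between the wildtype sets. The replicate number was also fitted as a replicate block, although the numbers did not pair the kidneys: the deviations of same-numbered kidneys correlated at -0.554 to 0.467, over 0.1 in 3 of 8 pairs, and 1 of 8 wildtype kidneys correlated best with its own number. The replicate block gave 5839 called and 5071 kept genes, 7313 against the R libraries and 4511 against the other set. Of 5247 values of 159 named genes under these alternatives, 5232 kept their side of the threshold and, where they passed it, their direction. A change of sign in a gene that passed in neither fit was counted among these. Another 11 (8 of them of Ren1) lost the call and 4 reversed. The reversals were all of Alb: -1.28 by the Wald test of DESeq2, -0.72 by limma-voom, -1.08 with the replicate block and -1.28 without PKD replicate 10, against 4.65 in the report; with 1 kidney left out at a time it ran from -1.28 to 4.84. Of 450 counts of list members kept, 62 moved by over 1.5 times, 32 of them with library totals alone (10 with more members, 22 with fewer). Of 20 T and NK cell, 14 B and plasma cell and 12 neutrophil genes, 14, 7 and 11 were below the filter on low values and have no test.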
